A study of Mus musculus with 7 samples.

Results

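The variable (V) region of the immunoglobulin heavy chain locus Igh was examined in 7 lists of open-chromatin peaks from mouse B-lineage cells. Members were all peaks on chromosome 12 that overlapped chr12:113572927-116010093 (mm10), the 2437 kb that hold the annotated Ighv segments, and there were 1144 of them among the 647973 peaks of the 7 lists. Open chromatin had been measured by ATAC-seq, in which DNA not protected by nucleosomes is preferentially recovered and sequenced. Each group was 1 library, so no comparison below has a replicate check or a p-value. Intervals are 95% Wilson intervals that cover counting error only and treat peaks or segments as independent.

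WT cells were Ergfl/fl, carrying a loxP-flanked Erg gene with no Cre, so that Cre and Erg loss cannot be told apart, and were sorted at 3 stages, pre-proB first, then proB and preB. Erg KO cells were Rag1CreT/+;Ergdelta/delta at the pre-proB stage, in which Erg, an ETS-family transcription factor, had been deleted by a Cre expressed from Rag1 in lymphoid progenitors. Rescue cells were Rag1CreT/+;Ergdelta/delta;IgHVH10tar at all 3 stages. They lacked Erg in the same way and carried a functionally rearranged heavy chain gene in the Igh locus itself. The study's text writes this allele as heterozygous (IgHVH10tar/+), so the other Igh allele of each cell carried no knock-in, whereas the labels do not state the second allele. At the proB and preB stages the effects of Erg loss and of the IgHVH10tar allele in Rescue cells cannot be told apart. Erg-deficient cells without the rearranged gene were present only as pre-proB cells.

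For the 3 Rescue libraries the sample titles and the source names disagree on the stage. Titles were used here, and the library titled pre-proB has the source name proB, the one titled proB has preB, and the one titled preB has pre-proB. The promoters of Pax5 and Vpreb1, genes of the B-cell programme, had no peak in the library titled Rescue pre-proB and had one in those titled proB and preB. In Erg KO pre-proB cells these 2 promoters and that of Cd79a had no peak, and in the 3 WT libraries all 3 had one. Promoters of T-cell genes were open in 3 to 7 of 10, most in the Erg KO and Rescue pre-proB libraries, but Cd3e and Cd3d had none in any library. Myeloid genes were open in 4 to 7 of 10, with none at Ly6g, Elane or S100a8. Plasmacytoid dendritic genes were open in 9 or 10 of 10 in every library, so that list did not separate them. The part of other cell types in the results was not tested. The lists held 76465 to 105649 peaks, the fold enrichments moved in steps that give a background of 3.49 to 4.60 fragments under a summit, and the gene body of Erg, of which only part is deleted, held 30 to 40 peaks in every library.

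In developing B cells an Igh V segment is joined to a D-J unit by the Rag1 and Rag2 recombinase, which cuts at recombination signals made of a conserved heptamer, a spacer and a nonamer directly 3′ of each V segment. The segments lie in families along the chromosome. Families Ighv2 (Q52) and Ighv5 are nearest to the D segments, and Ighv1 (J558) with the interspersed Ighv8 segments is farthest. Pax5, YY1 and CTCF are known for their roles in the folding of the locus that brings distant segments near the D segments. After a successful joining on an allele, the DNA between the chosen V segment and the D segments is gone from that allele, so fewer reads from lost DNA and lower accessibility of remaining DNA cannot be told apart in these libraries.

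The interval holds 185 segments of 16 families in GENCODE M21, 113 of them annotated as IG_V_gene and the rest as pseudogenes or other types. It was divided by the order of the families into a proximal domain of 318 kb with 33 segments, an intermediate domain of 568 kb with 40 segments and a distal domain of 1551 kb with 112 segments. Nearly all segments are transcribed from the minus strand, towards the D segments at the low-coordinate end. V segments are near copies of each other, so the share of 75-base words that occur in 1 place of the GRCm38 genome was computed, and it was 84.0% over the interval. The sources used here do not give how reads that fit several places were treated.

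The sequences directly 3′ of 4 segments with peaks show the features that lie where the summits of segment peaks gathered. They are printed from GRCm38, minus strand, 5′ to 3′, starting at the first base after the segment, with the positions of the heptamer and the nonamer and any match to the CTCF pattern in capitals.
Ighv5-2, chr12:113578384-113578503: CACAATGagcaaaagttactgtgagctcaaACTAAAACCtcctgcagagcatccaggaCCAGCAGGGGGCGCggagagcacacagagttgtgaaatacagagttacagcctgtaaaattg
Ighv2-2, chr12:113588147-113588266: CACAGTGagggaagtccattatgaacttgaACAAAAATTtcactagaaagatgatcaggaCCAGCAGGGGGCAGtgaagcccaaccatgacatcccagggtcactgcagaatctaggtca
Ighv1-72, chr12:115757864-115757983: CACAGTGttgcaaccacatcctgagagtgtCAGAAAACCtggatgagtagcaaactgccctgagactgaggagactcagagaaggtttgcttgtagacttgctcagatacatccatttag
Ighv1-81, chr12:115920159-115920278: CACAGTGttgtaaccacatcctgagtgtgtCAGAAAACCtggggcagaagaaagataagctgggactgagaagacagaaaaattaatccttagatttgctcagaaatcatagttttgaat
The heptamer was read at the first 7 bases and the nonamer at bases 31 to 39. The proximal Ighv5-2 and Ighv2-2 hold in addition a match to the CTCF pattern just behind the nonamer, and the distal Ighv1-72 and Ighv1-81 do not.

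Summits gathered at the 3′ ends of the segments. Within 100 bp downstream of a segment, where the recombination signal lies, were 18.98% of summits of WT pre-proB cells, 15.9% at the WT proB stage and 7.69% at the WT preB stage, against 0.743% of all bases of the interval. In Erg KO pre-proB cells the share was 18.9%, and in Rescue cells 16.1%, 13.8% and 13.1% from the pre-proB to the preB stage. A further 11.5% (WT preB) to 23.8% (WT proB) of summits lay inside a segment, which makes up 3.24% of bases. Within 100 bp upstream, the side of the V promoter, lay 0 to 4 summits per library. They were 0% of summits in each pre-proB library and 1.06% (Rescue proB) to 2.31% (WT preB) in the proB and preB libraries, against 0.751% of bases. The profile around the 3′ end shows summits on both sides of it, in the end of the segment and in the flank, at all 3 stages.

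**Figure D1:**
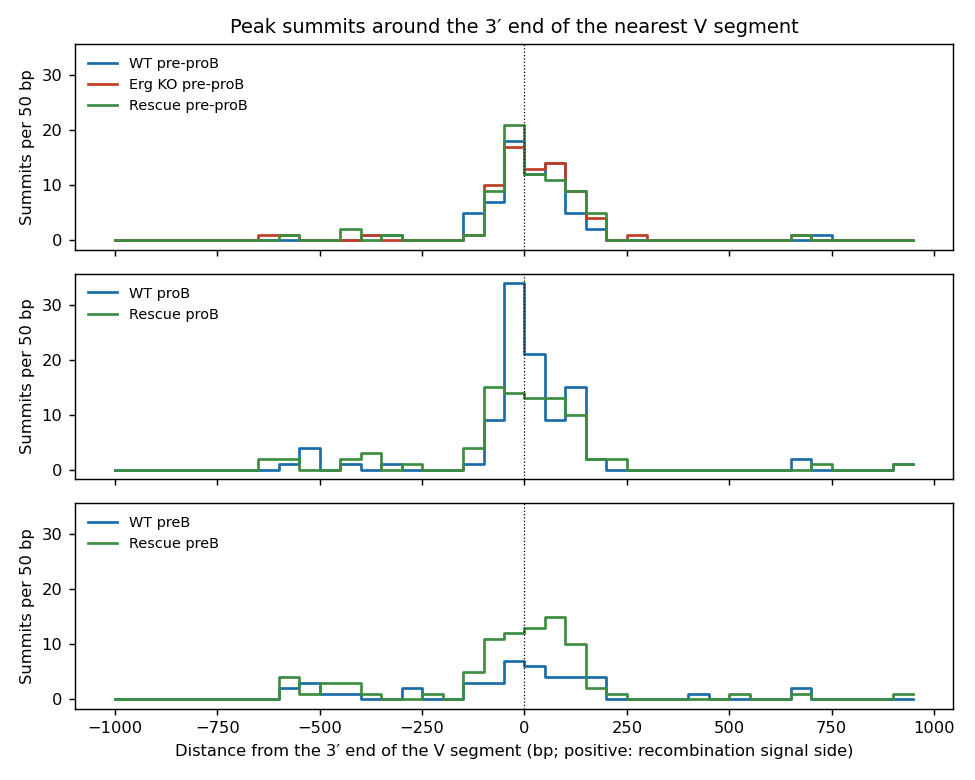
Number of peak summits per 50 bp (y axis) against distance from the 3′ end of the nearest V segment in bp (x axis, positive on the side of the recombination signal), with 1 line per library and 1 panel per stage. Summits are concentrated within about 150 bp of the 3′ end in every library, and WT preB has the fewest there.

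Of the 185 segments, 106 (57.3%) have the heptamer CACAGTG at their first 7 flanking bases. Among the 113 IG_V_gene segments it was present in 38 of the 56 with a summit within 100 bp downstream in at least 1 library (67.9%, 95% interval 54.8 to 78.599) and in 43 of the 57 without (75.4%, 62.9 to 84.8). The intervals overlap, so the canonical heptamer did not separate IG_V_gene segments with and without such a summit. Among pseudogenes and other types it was present in 7 of 11 with a summit and 18 of 61 without, with intervals of 35.4 to 84.8% and 19.6 to 41.9%.

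The number of V peaks differed by stage, and between WT and Rescue it differed most at the preB stage. WT pre-proB cells had 137, WT proB cells 189 and WT preB cells 130. Erg KO pre-proB cells had 143. Rescue cells had 143 at the pre-proB stage, 189 at the proB stage and 213 at the preB stage. The 3 pre-proB libraries therefore lay within 6 peaks of each other, the proB libraries had the same number, and the preB libraries stood apart. As a share of its list, V peaks were 0.143% (0.121 to 0.169) at the WT pre-proB stage and 0.206% (0.179 to 0.238) at the WT proB stage. They were 0.170% (0.143 to 0.202) in WT preB and 0.252% (0.221 to 0.288) in Rescue preB, intervals that do not overlap, while those of WT proB and WT preB do. With all lists cut to the 76465 highest scores the counts at the preB stage were 130 and 192. Under the source names the Rescue counts would be 213, 143 and 189 from pre-proB to preB.

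Most peaks of every library lay in the distal domain, which is also the longest. In WT cells the counts in the proximal, intermediate and distal domains were 2, 18 and 117 at the pre-proB stage, 11, 39 and 139 at the proB stage, and 1, 27 and 102 at the preB stage. Erg KO pre-proB cells had 3, 18 and 122. Rescue cells had 5, 18 and 120, then 3, 42 and 144, then 8, 54 and 151. The distal share was 85.4% (78.5 to 90.3), 73.5% (66.8 to 79.3) and 78.5% (70.6 to 84.7) in WT cells from the pre-proB to the preB stage. It was 85.3% (78.59 to 90.2) for Erg KO pre-proB cells, 83.9% (77.0 to 89.0), 76.2% (69.6 to 81.7) and 70.9% (64.5 to 76.6) in Rescue pre-proB, proB and preB cells. Each proB library thus had at least 39 intermediate peaks and each pre-proB library 18. The distal domain makes up 63.6% of the interval and 60.5% of the segments. Per Mb, the distal and intermediate domains held 75.4 and 31.7 peaks at the WT pre-proB stage, and 97.4 and 94.99 at the Rescue preB stage. With the last of 3 equal parts of the interval taken as distal, the share was 29.1 to 40.7% in the 4 proB and preB libraries.

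**Figure D2:**
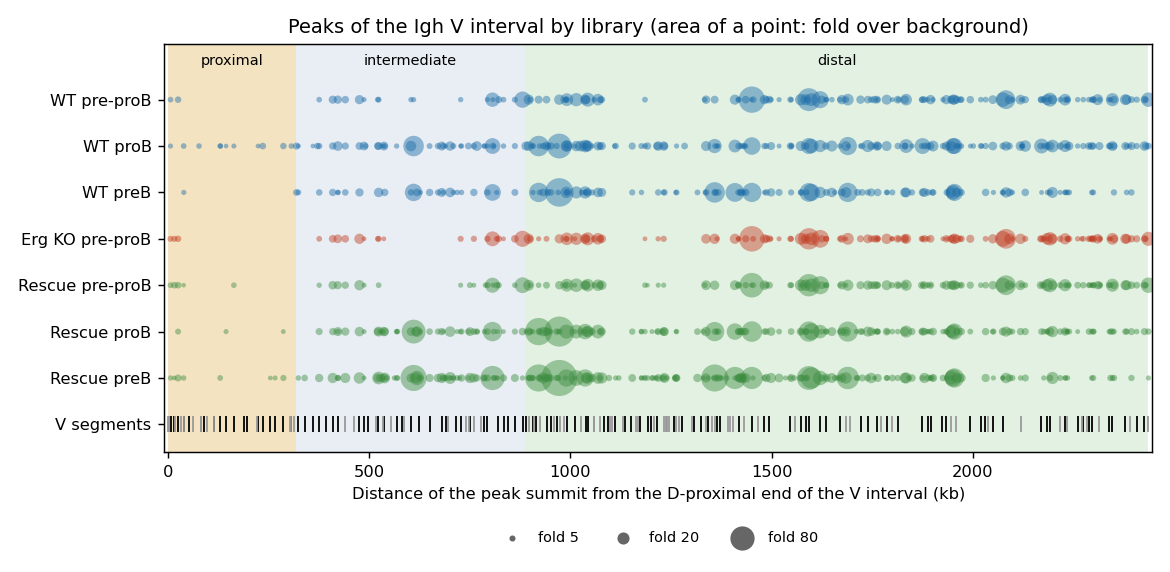
Summit of each V peak by library (rows) and distance from the D-proximal end of the interval in kb (x axis), with the area of a point proportional to its fold over background. Shading marks the 3 domains and ticks the V segments (black, IG_V_gene; grey, other). The proximal domain holds 1 to 11 peaks per library, and the last 437 kb are sparser in both preB libraries.

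Along the distal domain the libraries differed by position. In the most distal 437 kb, pre-proB libraries had 41 (WT), 43 (Erg KO) and 43 (Rescue) peaks, the proB libraries 43 (WT) and 36 (Rescue), and the preB libraries 22 (WT) and 23 (Rescue). From 600 to 800 kb of the interval, in the intermediate domain, the order was the other way, with 4, 3 and 5 peaks in WT, Erg KO and Rescue pre-proB cells, 17 and 20 in WT and Rescue proB cells, and 14 and 27 in WT and Rescue preB cells. These 200-kb bins were drawn after the counts were seen, and the difference between stages has no replicates.

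Peaks over V segments and peaks between segments differed between WT proB and WT preB cells in unequal measure. A V segment was overlapped by 65, 96 and 40 peaks in WT cells from the pre-proB to the preB stage, and the peaks elsewhere numbered 72, 93 and 90. Erg KO pre-proB cells had 72 over segments and 71 elsewhere. In Rescue cells 71, 83 and 81 were over segments and 72, 106 and 132 elsewhere, from pre-proB to preB. The share over segments was 50.8% (43.7 to 57.8) in WT proB and 30.8% (23.5 to 39.2) in WT preB, and 43.9% (37.0 to 51.04) and 38.03% (31.8 to 44.7) in Rescue proB and preB. Restricted to peaks with at least 80% unique 75-base words, it was 50.7% in WT proB and 36.6% in WT preB.

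**Figure D3:**
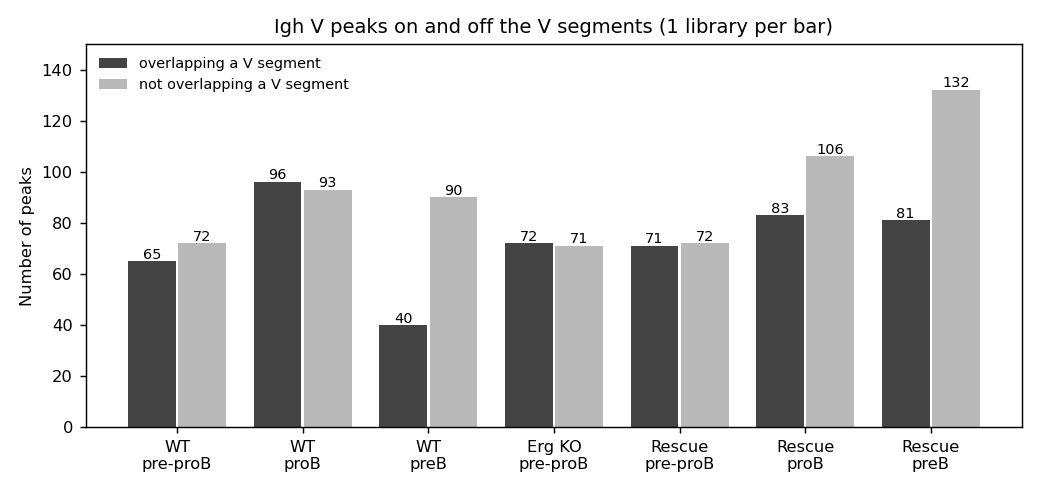
Number of V peaks (y axis) that overlap a V segment (dark bars) or do not (light bars) in each of the 7 libraries (x axis, 1 library each, no error bar). WT preB has the lowest count over segments, 40, and Rescue preB the highest count elsewhere, 132.

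The same contrast was seen peak by peak. Of the 96 segment peaks of WT proB cells, 58 (60.4%, 50.4 to 69.6) had no overlapping peak in WT preB cells, against 26 of the 93 other peaks (28.0%, 19.9 to 37.8). Of the whole WT proB list 26.7% had no WT preB partner, a share below the interval of the segment peaks and inside that of the other peaks. From Rescue proB to Rescue preB cells the numbers for segment peaks and other peaks were 20 of 83 (24.1%, 16.2 to 34.3) and 5 of 106 (4.72%, 2.03 to 10.6). Of the whole Rescue proB list 19.1% had no Rescue preB partner, a share inside the interval of the segment peaks and above that of the other peaks. In the other direction, 1 of the 40 segment peaks of WT preB cells (2.5%, 0.443 to 12.9) had no partner in WT proB cells. Of the 90 other WT preB peaks 26 (28.9%, 20.5 to 38.96) had none. The share of the whole WT preB list was 10.7%, inside the interval of the segment peaks and below that of the other peaks.

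Segments were counted as accessible where a peak lay within 500 bp. There were 65, 96 and 39 such segments in WT cells from the pre-proB to the preB stage, 71 for Erg KO pre-proB cells, and 71, 81 and 79 in Rescue cells in the same order. Of the 185, 26 were accessible in all 7 libraries and 74 in none. IG_V_gene segments were accessible in 27 (WT preB) to 77 (WT proB) of 113 cases and the others in 11 (WT pre-proB) to 19 (WT proB) of 72. Of the 96 segments accessible in WT proB, 58 had no peak in WT preB, and 1 had a peak in WT preB alone. Between Rescue proB and Rescue preB these numbers were 18 of 81 and 16. All 39 segments accessible in WT preB were also accessible in Rescue preB, which had 40 more.

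**Figure D4:**
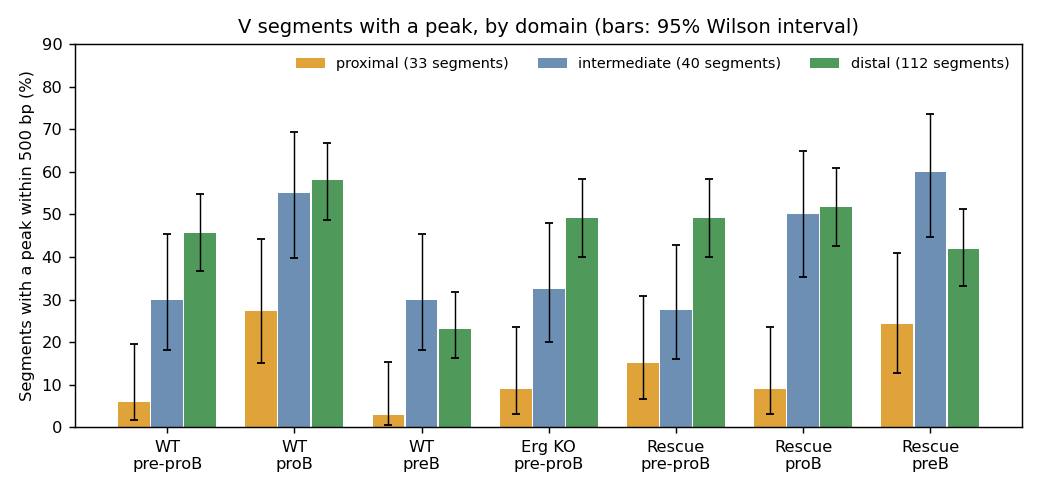
Share of V segments with a peak within 500 bp in percent (y axis) for the proximal, intermediate and distal domains in each library (x axis). Error bars are 95% Wilson intervals over segments, and the proximal share is the lowest of the 3 in every library.

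Among the large families, Ighv1, the J558 segments of the distal domain, had 39 of 93 accessible at the WT pre-proB stage, 49 at the proB and 14 at the preB stage. Erg KO pre-proB cells had 42, and Rescue cells had 43, 42 and 34 from pre-proB to preB. The WT preB share of 15.1% (9.18 to 23.7) lay below the interval of every other library. Ighv8 was the most accessible family with more than 10 members, with 9 (WT preB) to 13 (WT proB, Erg KO, Rescue proB) of 16. Ighv5, the family nearest to the D segments, had 2, 4 and 0 of 22 in WT cells from pre-proB to preB, 2 in Erg KO, and 3, 2 and 6 in Rescue cells. Ighv2, the Q52 segments, had 0, 5 and 1 of 11 in WT, 1 in Erg KO, and 2, 1 and 2 in Rescue cells.

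Small families of the intermediate and distal domains had contrasting patterns. Both Ighv4 and both Ighv11 segments were accessible in all 7 libraries. Of the 4 Ighv10 segments 3 were accessible in each of the 4 proB and preB libraries and none in the 3 pre-proB libraries. At Ighv10-1, chosen after its values were seen, the folds were 5.17 and 3.95 in WT proB and preB cells and 4.23 and 4.74 in Rescue proB and preB cells, and no Ighv10 segment had a peak in Rescue pre-proB cells. The 4 Ighv9 segments were all accessible in WT and Rescue proB cells, and none was in WT preB cells while 3 were in Rescue preB cells.

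Segments named in the study's text spanned this range. Ighv5-2, the functional segment nearest to the D segments, had folds of 4.46 and 3.69 at the WT pre-proB and proB stages, 4.95 in Erg KO, 4.65 in Rescue pre-proB and 3.92 in Rescue preB cells and no peak in WT preB or Rescue proB cells. Ighv1-72 had folds of 16.3 (WT), 18.3 (Erg KO) and 20.02 (Rescue) at the pre-proB stage, 7.38 (WT) and 4.90 (Rescue) at the proB stage, and no peak in either preB library. Only 27.2% of the 75-base words of the Ighv1-72 segment occur in 1 place, and the part of reads from its near copies was not tested. Ighv1-5 had a peak in all libraries but WT preB, with folds of 4.76 to 11.1. Ighv1-7 had one in WT proB (5.35), Rescue proB (6.01) and Rescue preB (5.36) only, and Ighv1-4 had none in any library. Of the end segments, the proximal Ighv5-1 had no peak, and the distal Ighv1-86 had folds of 28.7, 27.3 and 32.5 in WT, Erg KO and Rescue pre-proB cells, 6.28 and 5.57 in WT and Rescue proB cells, 3.71 in Rescue preB cells and no peak in WT preB cells. Its pre-proB values lay above all of its proB and preB values.

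Matches to the CTCF pattern differed by domain. CTCF is an insulator protein whose bound sites anchor chromatin loops. Overlapping peaks of the 7 lists were merged to 145247 regions, 274 of them in the V interval, and a window of 150 bp on either side of the summit was searched on both strands. The pattern was matched in 10 of 15 proximal regions (66.7%, 41.7 to 84.8), 0 of 61 intermediate regions (upper bound 5.92%) and 24 of 198 distal regions (12.1%, 8.28 to 17.4), against 3.78% of all regions. By segments, 13 of 33 proximal segments had a match within 200 bp of their 3′ end, 1 of 40 intermediate segments had one, and 0 of 112 distal segments did. All 14 matches began 56 to 64 bases after the segment and ran in the direction of the segment. Of the 13 proximal segments with a match, 10 had a peak within 500 bp in at least 1 library, and of the 20 without, 3 had one. All 13 with a match are IG_V_gene segments, and 14 of the 20 without are pseudogenes or of another type, none with a peak. Among IG_V_gene segments alone the numbers were 10 of 13 with a match and 3 of 6 without. Per library, 2 of the 13 had a peak at the WT pre-proB stage, 8 at the proB and 1 at the preB stage. Of the same 13, 3 had one in the Erg KO library, and 5, 3 and 6 had one in Rescue cells from pre-proB to preB.

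Other motifs were searched in the same windows. The heptamer CACAGTG was matched in 59.5% (50.2 to 68.1) of regions over segments and 19.02% (13.7 to 25.7) of the others, against 10.4% of all regions. Of all 185 segments, with or without a peak, 57.3% carry this heptamer directly 3′. The share in regions over segments therefore does not set open segments apart. The E2A patterns CAGCTG and CAGGTG were matched in 21.6% (15.0 to 30.2) of regions over segments, 52.1% (44.5 to 59.7) of those elsewhere and 44.2% of all regions. EBF1 (TCCCNNGGG) was matched in 13 of 274 regions, 12 of them in proB or preB libraries and no pre-proB library, where the share was 9.92% (5.76 to 16.5) of 121, against 7.599% of all regions. None of the 59 regions with a peak in all 7 libraries held it. PU.1 (GAGGAAGT) had 4.38% against 8.52%, YY1 (AANATGGC) 6.20% against 5.14%, and the octamer ATGCAAAT 4.01% (2.26 to 7.04) against 2.72%. In windows of 200 bp on either side the octamer had 8.76% (5.96 to 12.7) against 3.27%, so that the share of all regions then lay below the interval. The long PAX5 pattern was matched in 1 region (0.365%, 0.0645 to 2.04), against 0.0578% of all regions. Median GC content was 42.9% in V windows and 48.2% in all windows, so base composition differed too, and its part in the shares was not tested. A match is a description of the letters, not evidence of binding.

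The regions with the highest folds in all 7 libraries were of 2 kinds. In the first, folds were far higher at the proB and preB stages. The strongest, 744 bp 3′ of the pseudogene Ighv10-4 at chr12:114544556-114546514, had folds of 14.7 in WT, 11.7 in Erg KO and 9.83 in Rescue pre-proB cells, 84.2 in WT proB, 111 in WT preB, 124 in Rescue proB and 178 in Rescue preB cells. A relative at chr12:114493162-114494330, 1673 bp 3′ of the pseudogene Ighv10-2, had 8.72, 3.66 and 4.29 in WT, Erg KO and Rescue pre-proB cells, 57.2 and 51.3 in WT proB and preB cells, and 101.3 and 100.3 in Rescue proB and preB cells. In neither region did the pre-proB values overlap those of the later stages. The summit sequences of both, 51.4 kb apart, differ at 3 of 121 bases, shown in capitals on the minus strand.
Region 3′ of Ighv10-2, chr12:114493736-114493856: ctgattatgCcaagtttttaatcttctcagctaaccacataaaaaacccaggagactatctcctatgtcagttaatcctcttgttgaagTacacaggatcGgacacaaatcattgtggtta
Region 3′ of Ighv10-4, chr12:114545084-114545204: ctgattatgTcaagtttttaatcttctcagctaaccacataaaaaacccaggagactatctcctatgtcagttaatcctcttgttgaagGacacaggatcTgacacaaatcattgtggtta
Words of 75 bases found in 1 place made up 78.4% of the first region and 85.9% of the second, and the part that reads of the identical stretches have in these folds was not tested.

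In the second kind, folds were high already at the pre-proB stage and lower or similar later. The region over Ighv8-4 at chr12:115023270-115025557 had folds of 94.6 in WT, 88.7 in Erg KO and 82.6 in Rescue pre-proB cells, 42.1 and 50.6 in WT proB and preB cells, and 57.9 and 67.3 in Rescue proB and preB cells. The region over Ighv8-6 at chr12:115164883-115166556 had 71.5, 62.1 and 68.4 at the pre-proB stage, 35.1 and 48.2 in WT proB and preB cells, and 56.4 and 78.4 in Rescue proB and preB cells. The pre-proB values lay above all later values at Ighv8-4, and at Ighv8-6 above all but that of Rescue preB. At Ighv8-12, chosen after its values were seen, and at Ighv8-13 the folds were 24.6 to 33.5 in the 3 pre-proB libraries and 3.71 to 10.9 in the 4 others. Not all Ighv8 segments had this order, and at the pseudogene Ighv8-7 the folds were 2.93 to 5.82 in the pre-proB libraries and 13.1 to 18.2 in the others. The sequences at the summits over Ighv8-4 and Ighv8-6 both hold the RUNX pattern TGTGGTTT (capitals), a motif added to the search after these sequences were read.
Region over Ighv8-4, chr12:115023787-115023907: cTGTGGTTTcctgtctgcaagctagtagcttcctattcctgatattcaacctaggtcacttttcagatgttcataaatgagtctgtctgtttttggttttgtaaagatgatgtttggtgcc
Region over Ighv8-6, chr12:115165601-115165721: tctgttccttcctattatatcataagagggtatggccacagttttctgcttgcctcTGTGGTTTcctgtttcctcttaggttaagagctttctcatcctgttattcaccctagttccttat
This pattern was matched in 44 of 274 V regions (16.1%, 12.2 to 20.9), in 15 of the 59 shared by all 7 libraries (25.4%, 16.1 to 37.8), in 0 of 15 proximal regions, and in 5.60% of all regions.

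**Figure D5:**
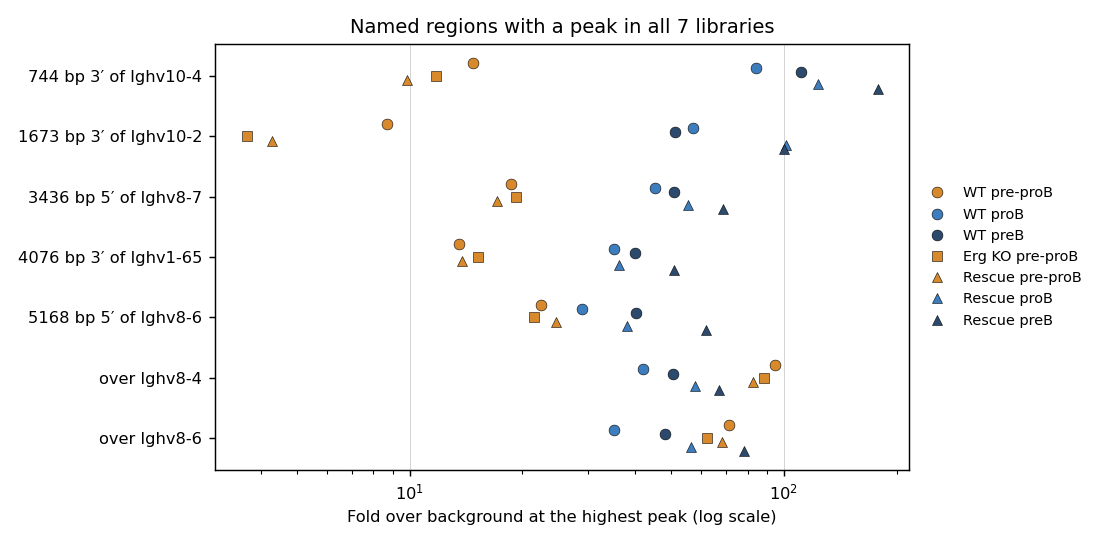
Fold over background (x axis, log scale) of 7 named regions (rows) in each library, with shape for genotype and colour for stage. Pre-proB points lie left of all proB and preB points in the upper 5 rows, right of them over Ighv8-4, and right of all but Rescue preB over Ighv8-6.

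Upstream of Ighv8 segments lay a set of regions related in sequence. Pax5-activated intergenic repeats have been described upstream of distal Ighv8 segments. Within 10 kb upstream of an Ighv8 segment there were 22 regions, with a median fold of 8.61 (Erg KO pre-proB) to 11.6 (WT pre-proB) among their peaks, against 5.57 to 6.60 among the other 252 V regions. The strongest in WT proB cells, 3436 bp 5′ of Ighv8-7 and in the lincRNA gene Gm30948, had folds of 18.6, 19.2 and 17.2 in WT, Erg KO and Rescue pre-proB cells, 45.2 and 50.8 in WT proB and preB cells, and 55.5 and 68.9 in Rescue proB and preB cells. The one 5168 bp 5′ of Ighv8-6 had 22.5, 21.4 and 24.7 at the pre-proB stage, 28.8 and 40.3 in WT proB and preB cells, and 38.1 and 61.9 in Rescue proB and preB cells. The one 5197 bp 5′ of Ighv8-13 differed less by stage, with 11.6, 13.9 and 12.5 at the pre-proB stage and 16.4 to 21.97 later. The one 5249 bp 5′ of Ighv8-9, with 54.5% unique words, had 3.49, 16.2 and 6.14 in WT cells from pre-proB to preB, 8.24 and 9.08 in Rescue proB and preB cells, and no peak in Erg KO or Rescue pre-proB cells. These regions and that 3785 bp 5′ of Ighv8-14 share an identical run of 34 bases near their summits, in capitals on the minus strand.
Region 5′ of Ighv8-7, chr12:115262555-115262668: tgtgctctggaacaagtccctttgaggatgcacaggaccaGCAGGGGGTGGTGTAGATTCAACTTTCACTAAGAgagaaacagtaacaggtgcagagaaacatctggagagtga
Region 5′ of Ighv8-6, chr12:115171877-115171961: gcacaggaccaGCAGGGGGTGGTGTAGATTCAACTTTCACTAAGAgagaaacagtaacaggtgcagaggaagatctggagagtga
Region 5′ of Ighv8-9, chr12:115474431-115474544: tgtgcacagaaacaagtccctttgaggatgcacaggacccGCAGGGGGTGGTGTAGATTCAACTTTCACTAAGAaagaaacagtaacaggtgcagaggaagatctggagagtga
Region 5′ of Ighv8-13, chr12:115771305-115771418: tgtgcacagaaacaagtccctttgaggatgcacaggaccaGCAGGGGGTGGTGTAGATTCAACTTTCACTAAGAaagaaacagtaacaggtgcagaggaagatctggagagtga
Region 5′ of Ighv8-14, chr12:115812855-115812968: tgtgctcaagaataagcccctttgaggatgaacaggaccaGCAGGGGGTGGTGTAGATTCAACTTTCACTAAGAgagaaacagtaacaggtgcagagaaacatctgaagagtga
Over the aligned part of the summit windows, the pairs among the first 4 were 93.0 to 99.2% identical. The strongest region was taken for each Ighv8 segment. For Ighv8-10 this was the region 4076 bp 3′ of Ighv1-65 at chr12:115526872-115527980, not among these relatives, with folds of 13.6 to 15.2 in the 3 pre-proB libraries and 35.1 to 50.8 in the 4 others. A second region, 4001 bp 5′ of Ighv8-10, had 10.3 to 14.2 in the pre-proB libraries and 27.0 to 39.8 in the others. A region 7074 bp 5′ of Ighv8-12 had the opposite order, with 48.3, 53.1 and 53.3 in WT, Erg KO and Rescue pre-proB cells and 12.2 to 15.1 in the 4 others. Both were chosen after their values were seen.

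Most V peaks of Erg KO and WT pre-proB cells had a partner in the other list. Of 137 WT pre-proB peaks 11 (8.03%, 4.54 to 13.8) had no partner in Erg KO cells, where 6.88% of the whole list had none, and of 143 Erg KO peaks 15 (10.5%, 6.46 to 16.6) had none in WT, against 13.6% of the list. Unshared peaks were weak, with a median fold of 4.07 in WT and 3.85 in Erg KO, against 7.37 and 7.05 for shared peaks. Among 123 V regions with a peak in both, 0 had an over 2-fold higher fold in Erg KO cells and 2 a lower one, after centring on the median of all shared regions, where 0.185% were higher and 0.332% lower. The median log2 difference, Erg KO minus WT, was -0.07. The strongest unshared WT peaks, 4022 bp 5′ of the pseudogene Ighv1-8 and 643 bp 5′ of Ighv1-74, had folds of 5.04 and 4.85. The strongest in Erg KO cells, 3785 bp 5′ of Ighv8-14 and over the pseudogene Ighv8-1, had 5.68 and 5.31. Except for the first, those regions had peaks in most of the other libraries.

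V peaks without a partner were more numerous in WT proB than in WT pre-proB cells. Of 189 WT proB peaks 76 (40.2%, 33.5 to 47.3) had no partner in WT pre-proB, against 31.9% of the list, and of 137 WT pre-proB peaks 24 (17.5%, 12.1 to 24.7) had none in WT proB, against 34.1% of the list. Both intervals exclude the share of the list, the first from above and the second from below. By domain, 10 of 11 proximal, 24 of 39 intermediate and 42 of 139 distal WT proB peaks had no partner. Among 110 shared regions 20 were over 2-fold higher in WT proB and 11 lower, that is 18.2% and 10%, against 14.8% and 15.0% of all shared regions. The strongest peaks without a partner were, in WT proB, over the pseudogene Ighv1-10 (fold 15.5) and 6771 bp 5′ of Ighv8-1 (13.1), and in WT pre-proB 1535 bp 3′ of Ighv6-7 (36.3) and 3966 bp 3′ of Ighv1-79 (16.5). The region near Ighv6-7 had 35.7 in Erg KO, 34.1, 8.02 and 3.92 in Rescue cells from pre-proB to preB, and no peak in WT proB or preB cells.

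Stage-specific regions were counted over all 7 libraries. Of 274 V regions 121 (44.2%) had a peak in at least 1 proB or preB library and in no pre-proB library. The share of all regions was 23.5%. Of these 121 regions, 33 had a peak in Rescue preB alone and 18 in WT proB alone. A further 2 had one in WT preB alone and 1 in Rescue proB alone. The 33 were 12.04% (8.71 to 16.4) of V regions against 2.05% of all regions, and the 18 were 6.57% against 6.48%. Under the source name of the library titled Rescue preB, which is pre-proB, the 33 would not be among the 121. Peaks only in pre-proB libraries were found in 12 V regions (4.38%), against 22.5% of all regions. In all 4 later libraries and no pre-proB library were 21 (7.66%, 5.07 to 11.4), against 5.19% of all regions, which lies inside the interval. In all 3 pre-proB libraries and no other were 6 (2.19%, 1.01 to 4.69), against 11.5%. The strongest of the 21 lay 5323 bp 5′ of the pseudogene Ighv13-1, with folds of 12.2 and 12.7 in WT proB and preB and 15.4 and 19.4 in Rescue proB and preB cells. The others named were 223 bp 3′ of Ighv3-4 (7.35 to 14.4) and 1169 bp 5′ of the pseudogene Ighv1-27 (5.92 to 13.6). The strongest of the 6 lay 3966 bp 3′ of Ighv1-79, with 16.5 in WT, 12.6 in Erg KO and 9.65 in Rescue pre-proB cells, followed by a region over Ighv8-5 (6.78 to 7.95) and one 2308 bp 5′ of Ighv6-3 (5.18 to 6.78).

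WT proB peaks without a partner in WT preB cells made up a larger share of the V peaks than of the list. Of 189 WT proB peaks 84 (44.4%, 37.5 to 51.6) had no partner in WT preB, against 26.7% of the list, and of 130 WT preB peaks 27 (20.8%, 14.7 to 28.5) had none in WT proB, against 10.7%. Among 98 shared regions 1 was over 2-fold higher in WT preB and 17 lower (1.02% and 17.3%), against 4.46% and 9.32% of all. The lower regions were 11 of the 37 shared regions over a segment and 6 of the 61 elsewhere. The region over Ighv1-81, whose 3′ flank is printed above, had folds of 23.5, 18.9 and 23.4 in WT, Erg KO and Rescue pre-proB cells, 13.5 in WT proB, 5.79 in Rescue proB, 4.13 in Rescue preB and no peak in WT preB cells. The strongest WT preB peaks without a WT proB partner were 5174 bp 3′ of Ighv3-3 (fold 8.11, with 45% unique words) and 3957 bp 5′ of Ighv1-56 (7.89).

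At the pre-proB stage, too, most peaks of Rescue and WT cells had a partner. Of 143 Rescue peaks 18 (12.6%, 8.11 to 19.02) had no partner in WT, against 15.6% of the list, and of 137 WT peaks 10 (7.30%, 4.01 to 12.9) had none in Rescue, against 5.88%. Among 123 shared regions 4 were over 2-fold higher in WT and 0 lower, against 0.471% and 0.196% of all. These 3.25% over 2-fold were 0.813% without centring and 1.09% among regions with at least 80% unique words. The strongest Rescue peaks without a partner were 2044 bp 3′ of Ighv6-3 (fold 6.43) and in the region over Ighv2-2 (6.08). The second Rescue peak itself lay 47 bp 3′ of Ighv2-2. The strongest of WT were over Ighv9-1 (4.65) and Ighv6-4 (4.46). The Ighv2-2 region was present in Erg KO cells too, with 5.13. Erg KO and Rescue pre-proB cells differ in the IgHVH10tar allele. Of 143 Erg KO peaks 10 (6.99%, 3.84 to 12.4) had no partner in Rescue, against 6.57% of the list. Of 143 Rescue peaks 14 (9.79%, 5.92 to 15.8) had none in Erg KO, against 9.81%. Among 127 V regions with a peak in both, 0 were over 2-fold higher in Rescue and 1 lower, against 0.0589% and 0.0906% of all.

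At the proB stage 41 of 189 Rescue peaks (21.7%, 16.4 to 28.1) had no partner in WT, against 19.8% of the list, and 39 of 189 WT peaks (20.6%, 15.5 to 27.0) had none in Rescue, against 20.6%. The shares of both lists lie inside the intervals. Of the 11 proximal WT proB peaks 9 had no Rescue partner. Among 144 shared regions 13 were over 2-fold higher in WT and 3 lower, against 6.67% and 5.19% of all. The strongest Rescue peaks without a partner were 5174 bp (16.04) and 6996 bp (11.4) 3′ of Ighv3-3, and those of WT were over the pseudogene Ighv1-79 (8.86) and over Ighv1-23 (7.38).

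At the preB stage the lists were unequal. Of 213 Rescue peaks 95 (44.6%, 38.1 to 51.3) had no partner in WT, against 17.9% of the list, and of 130 WT peaks 8 (6.15%, 3.15 to 11.7) had none in Rescue, against 8.02%. The 95 were made up of 7 of 8 proximal, 28 of 54 intermediate and 60 of 151 distal peaks, and their median fold was 4.33, against 9.08 for shared peaks. Among 117 shared regions 0 were over 2-fold higher in WT and 8 lower (6.84%), against 1.26% and 2.20% of all. The median log2 difference, WT minus Rescue, was -0.40 over the V regions after centring on all shared regions. It was -0.59 in the 25 intermediate and -0.34 in the 91 distal regions, and 98 of the 117 lay below 0. The strongest Rescue peaks without a partner were 6996 bp 3′ of Ighv3-3 (16.5) and over Ighv3-8 (14.4), and the region near Ighv3-3 had a peak in both later Rescue libraries and in no other. The strongest WT peaks without one were 4739 bp 3′ of Ighv7-1 (6.14) and 3785 bp 5′ of Ighv8-14 (4.60). With the stages of the Rescue libraries taken from their source names, 51.6% of Rescue pre-proB, 19.6% of Rescue proB and 37.6% of Rescue preB peaks had no WT partner.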

How the data were processed

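ATAC-seq peaks of B-lineage cells from mouse bone marrow were analysed, 1 library per group, 7 in all. Per the submitters' processing notes, the authors used CASAVA 1.8.2, Bowtie2, Picard and MACS2 with the mm10 genome. The sources disagree on fragmentation (sonication in the methods, Tn5 in the sample protocol). The deposited peak lists give for each peak a score, the fold enrichment of its summit over background, and the −log10 p-value and −log10 q-value, all as the authors' peak caller wrote them. They hold no counts, so the depth is unknown apart from the steps of the fold.

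Peaks were placed against the Ighv segments of GENCODE M21. A peak was shared where another list had a peak overlapping it by at least 1 bp. Overlapping peaks were merged to regions, and a region's fold in a library was that of its highest peak. Distances to a segment given for named regions and for named unshared peaks were measured from the merged region. The peak of a single library can lie farther away. Folds were compared on the log2 scale after centring on the median of all shared regions, and called over 2-fold. Sequences came from RefSeq GRCm38.p6. With 1 library per group no test was made. The scripts were tested on simulated data. Python 3.11.15, numpy 2.4.6, pandas 2.3.3, scipy 1.17.1, numba 0.67.0 and matplotlib 3.10.9 were used.

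Named segments were those in the study's text, the first and last of the interval and those nearest to named regions. Named regions were the 5 of highest median fold with peaks in all 7 libraries, the 2 unshared peaks of highest score for each pair and direction, the 3 strongest of each stage pattern and up to 5 upstream of Ighv8 segments. Members and lists were chosen with earlier results of these data known. The alternatives were shorter lists, only uniquely placed peaks, other windows and borders, IG_V_gene segments only, reciprocal overlap of 50%, no centring, and the source names of the Rescue libraries. The RUNX pattern and the alternatives on peaks over segments were added after seeing the data. A marker of the B-lineage list is not reported here.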

Additional observations from a re-analysis of the deposited data

Results flagged for a closer look

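From proB to preB, WT and Rescue counts of V peaks differed in opposite directions. WT preB had 59 fewer V peaks than WT proB and Rescue preB 24 more than Rescue proB, so the Rescue difference minus the WT difference was 83 peaks. The WT preB list is shorter (76465 peaks) than the WT proB list (91668), and as a share of the list V peaks were 0.206% (0.179 to 0.238) and 0.170% (0.143 to 0.202) there at the proB and preB stages, with overlapping intervals. By domain the same difference was 15 for proximal peaks (WT 10 fewer, Rescue 5 more), 24 for intermediate peaks (WT 12 fewer, Rescue 12 more) and 44 for distal peaks (WT 37 fewer, Rescue 7 more). It was 29 for peaks outside segments (WT 3 fewer, Rescue 26 more). For the distal share it was -10.2 percentage points, with the share 4.92 points higher in WT preB than in WT proB, and -5.30 points from Rescue proB to Rescue preB. From pre-proB to proB, proximal peaks were 9 more in WT and 2 fewer in Rescue cells, a difference of -11. With 1 library per group none of these differences was tested, and most counts share the same 4 libraries.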

How the results depend on the processing

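Of 190 values recomputed under an alternative, 119 stayed within the limits set around the reported value and 71 did not. For shares the limits were the 95% interval. Counts of V peaks have no interval here, and a fixed ratio to the reported count was used for them, which is a looser limit of another kind. Libraries are given in the order WT pre-proB, WT proB, WT preB, Erg KO, Rescue pre-proB, Rescue proB, Rescue preB. With every list cut to its 38232 highest scores there were 34, 56, 34, 35, 27, 46 and 56 V peaks, and 9.73, 16.2, 4.32, 10.3, 9.19, 9.73 and 10.3% of segments were accessible. The distal share was then 94.1%, 83.9% and 91.4% for the WT pre-proB, WT proB and Erg KO libraries, and the share over segments 20.6% in WT preB, 63.0% in Rescue pre-proB and 30.4% in Rescue preB cells. Peaks without a partner were 29.4% for WT pre-proB against WT proB, 55.4% for the reverse, 53.6% for WT proB against WT preB, 3.70% for Rescue against WT pre-proB, 23.5% for the reverse, 37.5% for WT against Rescue proB and 0% for WT against Rescue preB. With lists cut to 76465, Rescue pre-proB had 94 V peaks, accessible segments were 27.0, 42.2, 30.3, 28.1 and 36.2% in WT pre-proB, WT proB, Erg KO, Rescue pre-proB and Rescue proB, and 15% of WT pre-proB peaks had no Rescue partner. With the last of 3 equal parts of the interval as distal, the distal share was 54.7, 40.7, 38.5, 55.2, 53.1, 40.2 and 29.1%. With IG_V_gene segments only, accessible shares were 47.8, 68.1, 49.6, 50.4, 55.8 and 54.0% in all libraries but WT preB, and shares of peaks over segments 38.7, 40.2, 21.5, 39.9, 40.6, 33.9 and 29.1%. With a reciprocal overlap of 50%, peaks without a partner were 32.1% for WT pre-proB against WT proB, 50.8% for the reverse, 53.4% for WT proB against WT preB, 32.3% for the reverse, 13.1% for WT against Rescue pre-proB, 33.3% for Rescue against WT proB and for the reverse, and 13.1% for WT against Rescue preB. With Rescue stages from the source names they were 51.6% for Rescue against WT pre-proB, 24.8% for the reverse, 38.6% for WT against Rescue proB and 37.6% for Rescue against WT preB, and 43.0% and 25.2% of shared regions were over 2-fold between Rescue and WT at the pre-proB and proB stages. Between Rescue and WT pre-proB cells 0.813% were over 2-fold without centring and 1.09% among regions with at least 80% unique words. With windows of 200 bp the octamer was matched in 8.76% of regions. The cause of these differences was not tested beyond the construction of each alternative. The peak lists hold no counts, so a weak peak near the lower limit of calling cannot be told from none, and no paired analysis was possible because each group is 1 library.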
